A study of Mus musculus with 13 samples.

Results

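The genes described here encode the collagens of the extracellular matrix and the proteins that crosslink, cut and regulate it. They were chosen by the gene names in the array design. Every collagen chain gene entered, with every metalloproteinase (Mmp), tissue inhibitor of metalloproteinases (Timp), ADAMTS or ADAMTS-like gene and lysyl oxidase-like gene, and Fn1, Dcn, Lum, Tgfb1, Acta2 and Ctgf. The rule found 105 genes with 157 probes, and 66 of them were among the 19513 genes tested.

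The values come from the livers of female C57BL6 mice aged 12 weeks, measured on 13 one-colour Agilent arrays. In 5 samples the mice were on the diet labelled HFHS with vehicle (HFHS vehicle), in 3 on the standard diet, labelled ST, with vehicle (ST vehicle), and in 5 on the standard diet with a mixture of 4 unnamed pollutants (ST pollutants). The series title sets a low-dose mixture beside a high-fat challenge, so the comparisons ask what each exposure changed against ST vehicle and how the exposures differ. The labels do not give the composition of the HFHS diet or the doses, and the series text can also be read as pollutants given in the high-fat diet, while each pollutant sample is labelled ST.

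In the liver, matrix is laid down mainly by hepatic stellate cells and portal fibroblasts, which make fibrillar collagens I and III when activated. TGF-beta and CTGF drive that activation, smooth muscle actin (Acta2) marks it, lysyl oxidases crosslink the fibres, and metalloproteinases and ADAMTS proteases cut matrix proteins under restraint by TIMPs. Excess collagen I and III is the hallmark of liver fibrosis.

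Correlation over all genes was 0.977 to 0.992 within groups and 0.973 to 0.992 between groups. The arrays lay on 5 slides, each with an HFHS vehicle and an ST pollutants array, and ST vehicle arrays were on slides 1, 2 and 5. Slide 1 stood apart on the first principal component (22.8% of the variance). The mean of 10 of 14 pancreatic acinar markers was 3.53 to 6.93 in HFHS vehicle replicates 3, 4 and 5, against -3.64 to -2.05 on the other 10 arrays. Where leaving out those replicates or slide 1 ends a call, the value without them is given. All 9 hepatocyte markers were measured, with a mean of 7.85 to 8.43, and all 12 stellate cell markers, with a mean of -0.44 to -0.17. The mean of 5 of 7 skeletal muscle markers varied more widely. It was -4.79 to -0.14 in HFHS vehicle (median -4.30), -3.38 to -0.44 in ST vehicle (-0.80) and -2.96 to -0.06 in ST pollutants (-0.17). That of 6 of 7 adipocyte markers was -1.86 to -1.30, -1.97 to -0.59 and -2.30 to 0.11 in the same order. Their part in the differences between groups was not tested.

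A level is the log2 signal of 1 probe minus the 75th percentile of its array, so it can be compared between arrays for 1 gene but not between genes. Tested genes were those with a probe well above background throughout 1 group or more. Of the 105 genes, 59 had a probe well above background on all 13 arrays. A further 7 passed through at least 1 group only: Col13a1, Col15a1, Col19a1, Col26a1, Col6a4, Col9a1 and Loxl4. Of the 39 genes not tested, 19 were not well above background on any array, among them Mmp9 (gelatinase B), the cartilage collagen Col2a1 and the chain Col10a1. The other 20 reached 1 to 10 arrays, such as the collagenases Mmp13 (2 arrays) and Mmp8 (1 array), Mmp12 of macrophages (7 arrays), Timp4 (7 arrays) and the collagen V chain Col5a2 (4 arrays). These 39 genes were left out of the tests, which does not show that the genes were silent.

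**Figure D1:**
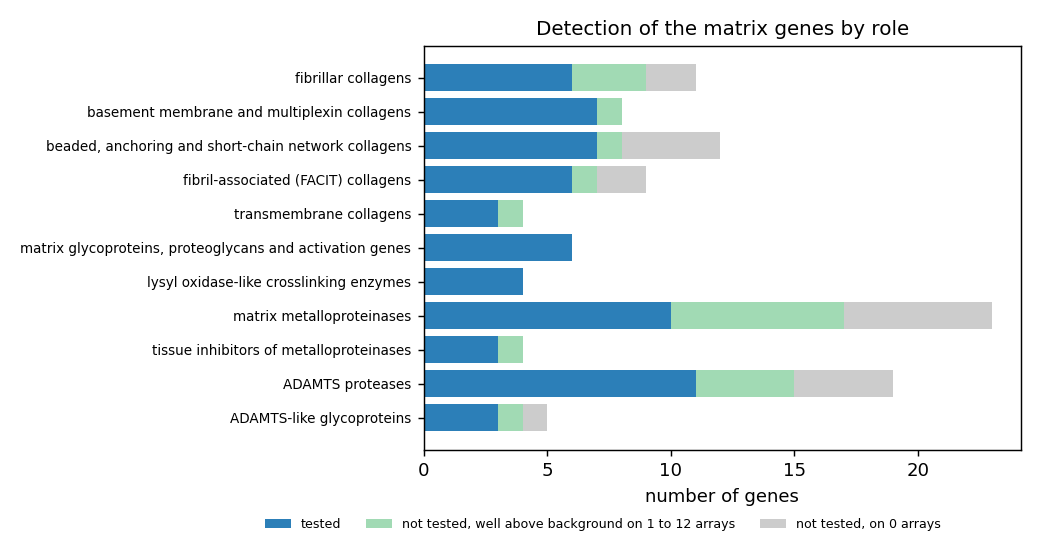
Number of genes of each role by detection, as horizontal bars from 0: tested genes, untested genes well above background on 1 to 12 arrays, and untested genes on 0 arrays. All 4 lysyl oxidase-like genes and all 6 matrix and activation genes were tested, against 10 of 23 metalloproteinases.

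Collagen chains share a repeat in which glycine recurs after each pair of other residues, whose codons start with GG. Of the 29 collagen probes used, 2 read such a stretch, with a glycine codon leading each triplet of codons in 1 frame. They are printed to show what a collagen probe sees on the array; capitals mark the glycine codons, and positions are those of the files on mm9. The Col15a1 probe lies at chr4:47283786-47283845 and the Col25a1 probe at chr3:130270497-130270556, both on the plus strand.
Col15a1: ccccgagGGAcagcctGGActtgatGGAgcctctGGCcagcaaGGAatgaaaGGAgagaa
Col25a1: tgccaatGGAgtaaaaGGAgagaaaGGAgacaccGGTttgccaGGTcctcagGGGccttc

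None of the 66 tested genes passed limma's test (adjusted p under 0.05 over all genes) in any comparison. In HFHS vehicle against ST vehicle 0.687% of all genes passed, in ST pollutants against ST vehicle 0.984%, and in HFHS vehicle against ST pollutants 3.87%. At an unadjusted p under 0.05, 3 of 66 were below the threshold in the first comparison (background 12.1%), 6 in the second (12.2%) and 7 in the last (18.3%). The 3 were Adamts1, Loxl4 and Lum. For Loxl4 that difference is a description with no test, since its probe passed the filter only through the other groups. The 66 also hold the other genes named above that were not well above background on all 13 arrays. On the probe used for each gene, no estimate reached a 2-fold difference. The 95% interval lay within 2-fold either way for 58 of 66 genes in the first comparison, 52 in the second and 58 in the last. The comparisons share arrays: both exposures are set against the same 3 ST vehicle arrays. The median log2 fold change of the 66 genes was -0.05 for HFHS vehicle against ST vehicle, beside -0.02 over all genes, and became 0.18 under normexp background correction, where the median of all genes was 0.09. It was -0.07 for ST pollutants against ST vehicle, beside -0.01 over all genes. For HFHS vehicle against ST pollutants it was 0.02, beside -0.005 over all genes, and 0.25 beside 0.09 under normexp. In the comparison of HFHS vehicle with ST vehicle 41 of 66 estimates were negative (54.5% of all genes), in that of ST pollutants with ST vehicle 45 (51.8%), and in that of HFHS vehicle with ST pollutants 32 (51.1%). The labels call the replicates biological without saying whether each is 1 mouse, so the p-values measure the spread between these samples. In the alternatives tried, at most 2 of the 66 passed in any comparison, and none passed without HFHS vehicle replicates 3, 4 and 5 or without slide 1.

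**Figure D2:**
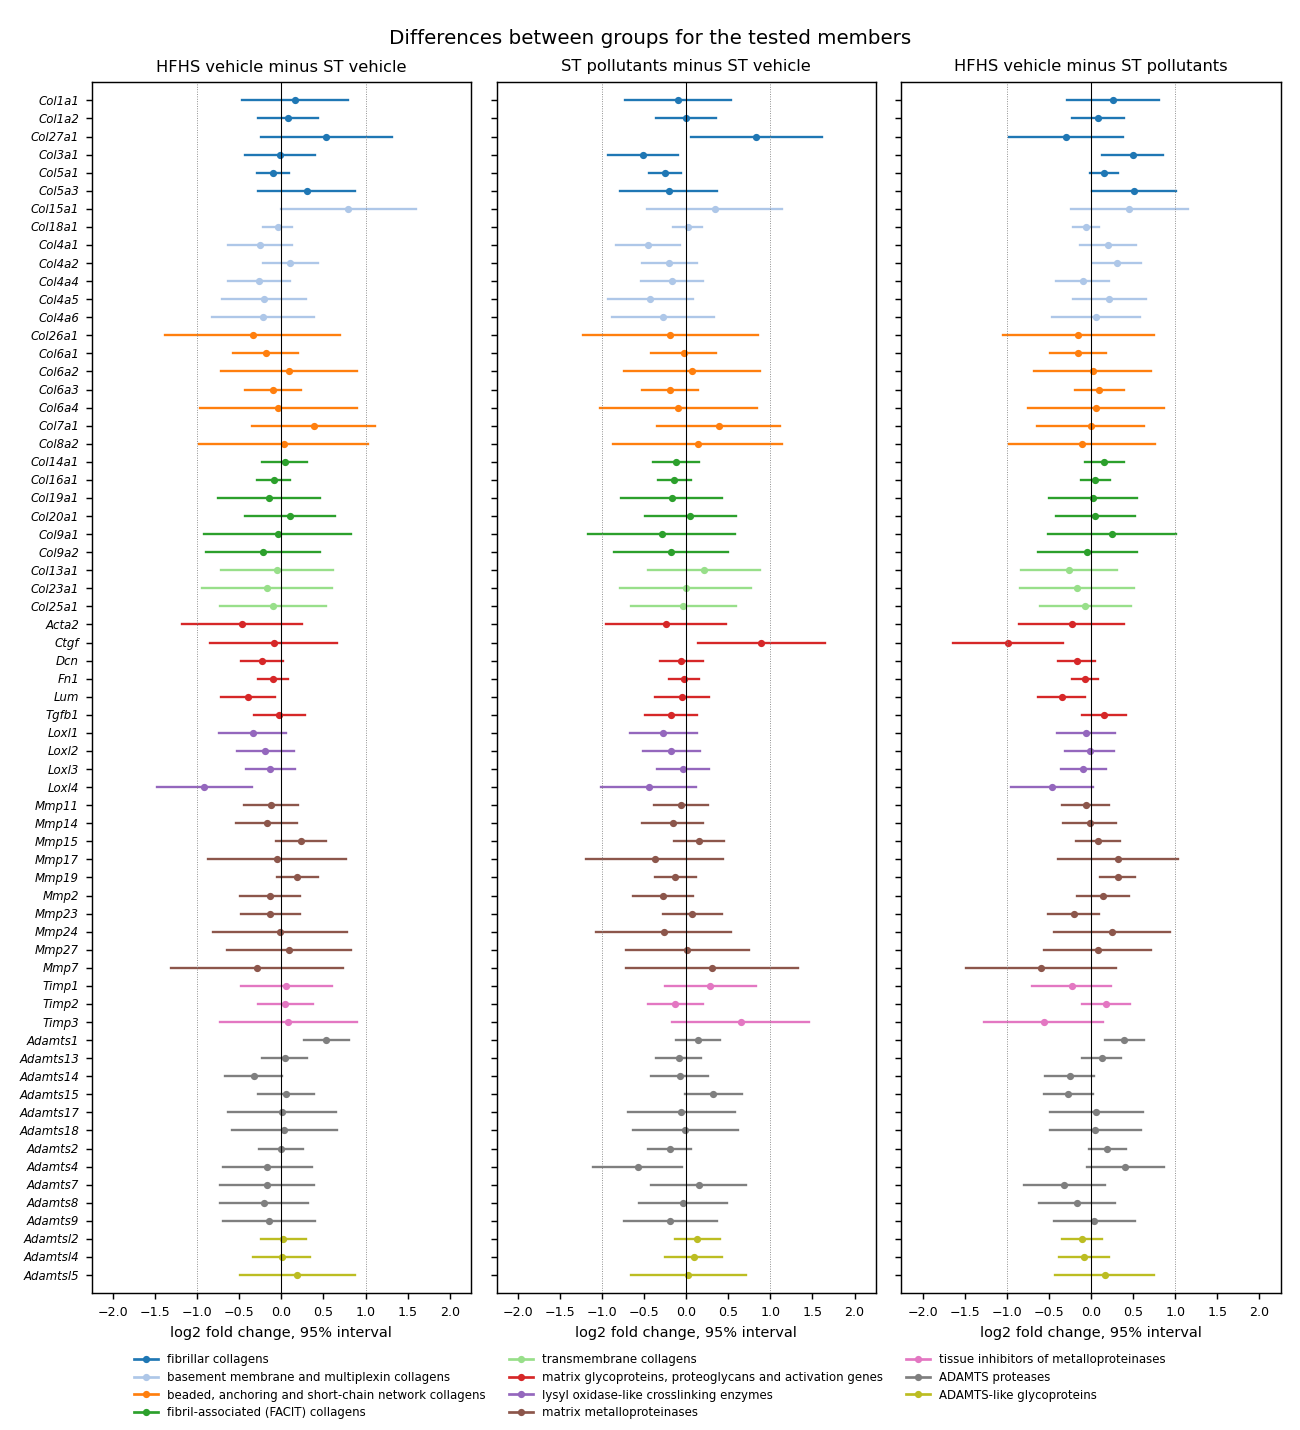
Log2 fold change (points) with its 95% interval (lines) for the 66 tested genes in the 3 comparisons, coloured by role; dotted lines mark a 2-fold difference. No point reaches the dotted lines, and most intervals lie between them.

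The fibrillar collagens, which form the tensile fibres of the matrix, did not pass the test in any comparison (6 of 11 tested). Col1a1, the alpha1 chain of collagen I, was at -1.24, -0.86, -0.86, -0.44 and -1.0 in HFHS vehicle, -1.19, -1.29 and -0.65 in ST vehicle, and -1.19, -0.43, -0.72, -1.66 and -1.69 in ST pollutants. The groups overlap fully, and the pollutant arrays span the widest range. The log2 fold change was 0.16 ± 0.29 (SE) for HFHS vehicle and -0.10 ± 0.29 for ST pollutants, each against ST vehicle (limma adjusted p = 0.96 in both). Col1a2, its partner chain, was at 1.73, 1.81, 1.81, 2.13 and 1.50 in HFHS vehicle, 1.65, 1.74 and 1.76 in ST vehicle, and 1.55, 2.12, 1.89, 1.62 and 1.41 in ST pollutants. Those groups overlap too, with differences of 0.08 ± 0.16 and -0.00014 ± 0.16 from ST vehicle.

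Col3a1, the collagen III chain that co-assembles with collagen I, had the lowest levels in ST pollutants. It was at 0.43, 0.81, 0.61, -0.06 and 0.30 there, against 0.81, 0.82 and 1.16 in ST vehicle and 0.73, 0.96, 0.72, 1.33 and 0.83 in HFHS vehicle. All 5 pollutant arrays lay below all 3 ST vehicle arrays, by a margin of under 0.01 between the nearest pair, and 1 pollutant array, replicate 2, overlapped with HFHS vehicle. The difference from ST vehicle was -0.51 ± 0.19 (limma adjusted p = 0.276), and the difference of HFHS vehicle from ST pollutants was 0.49 ± 0.17 (adjusted p = 0.127). Within slides, ST pollutants minus ST vehicle was -0.38, -0.01 and -0.86 on slides 1, 2 and 5. Col5a1, which nucleates collagen fibrils, was the other gene whose pollutant arrays (-2.12 to -1.93) all lay below ST vehicle (-1.87 to -1.57), with a difference of -0.25 ± 0.09 and a limma adjusted p of 0.242. It was chosen after its values were seen. Non-overlap held for 2 of 66 genes in this comparison, against 8.33% of all genes.

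Col27a1, a minor fibrillar collagen of cartilage, had the largest positive estimate of the collagens in ST pollutants. Its levels there were -2.43, -1.32, -2.81, -3.37 and -2.49, against -3.52, -2.98 and -3.46 in ST vehicle. The difference was 0.83 ± 0.36 (limma adjusted p = 0.364), positive on all 3 slides (0.97 to 1.66), and 0.54 without ST pollutants replicate 2. Col5a3 was at -0.65, 0.03, -0.84, 0.11 and 0.09 in HFHS vehicle and at -0.67, -1.13, -0.27, -0.57 and -1.17 in ST pollutants, a difference of 0.51 ± 0.23 (limma adjusted p = 0.258).

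**Figure D3:**
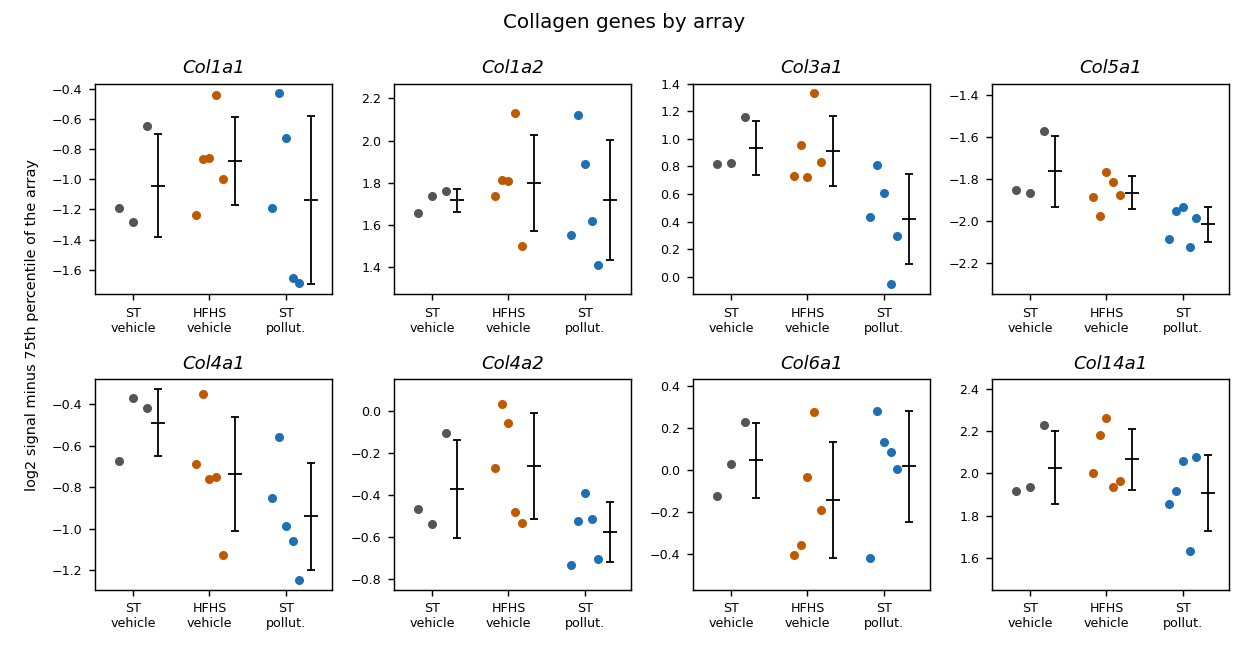
Levels of 8 collagen genes on each array (points) by group, with the group mean and SD (black); the vertical axis is the log2 signal minus the array's 75th percentile and its range differs between panels. Col3a1 and Col5a1 are the panels in which the pollutant points lie below the ST vehicle points.

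The collagen I and III transcripts varied together between arrays of the same group. As deviations from group means over the 13 arrays, Col1a1 and Col1a2 had Pearson's r of 0.824 (permutation p = 0.00036, adjusted over 6 relations 0.00072) and Spearman's rho of 0.808 (permutation p = 0.00133, adjusted 0.00312). Without the 2 arrays farthest from the Col1a1 median r was 0.673, and as deviations from slide means it was 0.917. For Col1a1 and Col3a1, r was 0.898 (permutation p = 2e-05, adjusted 6e-05) and rho 0.808 (permutation p = 0.00156, adjusted 0.00312), with r of 0.920 without the 2 farthest arrays and 0.829 as deviations from slide means. The chain pairs of the other matrices were less tightly tied in these arrays: r was 0.501 for Col4a1 and Col4a2, 0.554 for Col6a1 and Col6a3 and 0.528 for the proteoglycans Dcn and Lum. Their permutation p adjusted over the 6 relations was 0.083, 0.0742 and 0.0768. Without the 2 farthest arrays r was 0.35, 0.49 and 0.37, and as deviations from slide means it was higher, at 0.73, 0.67 and 0.66. The differences between these correlations were not tested. In bulk liver, more cells of a type and more RNA per cell cannot be told apart.

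**Figure D4:**
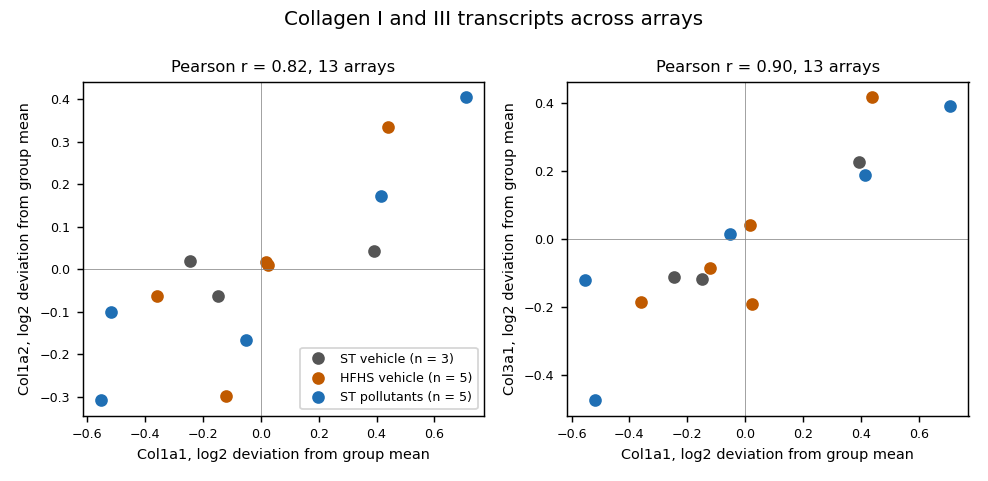
Deviation of Col1a2 (left) and Col3a1 (right) from the group mean against that of Col1a1, in log2 units, 1 point per array and colours for the 3 groups. The points rise from lower left to upper right in both panels (r = 0.82 and 0.90 over 13 arrays).

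Because Col1a2 and Col3a1 varied with Col1a1, the 250 bases before their annotated starts are shown, from RefSeq on GRCm38.p6, with the strand of the gene. RefSeq promoters were matched for 74 of the 105 genes. Capitals mark every match, on either strand, to GGAATG (a TEAD motif), CAGAC (a SMAD half-site), TGACG (a CRE half-site), TATAAA and CCAAT. No 2 matches overlapped in these windows. Col1a2 lies at chr6:4505368-4505617 and Col3a1 at chr1:45311288-45311537, both on the plus strand.
Col1a2: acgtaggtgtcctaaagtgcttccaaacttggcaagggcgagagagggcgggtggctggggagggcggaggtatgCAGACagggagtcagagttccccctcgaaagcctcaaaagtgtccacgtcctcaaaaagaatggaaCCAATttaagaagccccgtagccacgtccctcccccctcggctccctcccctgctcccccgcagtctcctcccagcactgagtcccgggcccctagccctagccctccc
Col3a1: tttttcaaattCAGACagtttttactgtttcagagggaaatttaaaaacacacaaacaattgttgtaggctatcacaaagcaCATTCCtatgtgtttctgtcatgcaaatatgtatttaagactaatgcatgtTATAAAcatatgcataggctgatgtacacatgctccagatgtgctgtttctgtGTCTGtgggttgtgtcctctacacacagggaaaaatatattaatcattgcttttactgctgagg

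The Col1a2 window holds 1 CAGAC and 1 CCAAT, and the Col3a1 window holds 1 GGAATG, 2 CAGAC and 1 TATAAA, read on either strand. Of 32851 promoter windows of 250 bases, 42.2% hold CAGAC, 33.8% CCAAT, 12.6% GGAATG and 12.4% TATAAA. These are matches of letters, not binding sites.

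Of the basement membrane collagens and the multiplexins, 7 of 8 were tested and none passed. Col4a1, 1 of the main chains under the sinusoidal and vascular endothelium, was at -0.67, -0.37 and -0.42 in ST vehicle and at -0.85, -0.56, -0.99, -1.06 and -1.25 in ST pollutants, so that 1 pollutant array lay among the ST vehicle arrays. The difference was -0.45 ± 0.18 (limma adjusted p = 0.301), with -0.18, -0.19 and -0.83 within slides 1, 2 and 5. Its partner Col4a2 differed by -0.20 ± 0.15 in the same comparison, and by 0.31 ± 0.13 between HFHS vehicle and ST pollutants (adjusted p = 0.22). Col18a1, the endostatin precursor made by hepatocytes, had tight levels of 5.51 to 5.78 on all 13 arrays, with differences of -0.04 ± 0.08 for HFHS vehicle and 0.02 ± 0.08 for ST pollutants against ST vehicle. A second Col18a1 probe, well above background on all 13 arrays at 5.23 to 5.72, gave -0.19 ± 0.09 (limma adjusted p = 0.418) and -0.21 ± 0.09 (0.340), so the probes disagree on ST pollutants. Col15a1, a multiplexin of vessel walls, was read by a dim probe that passed the filter only through HFHS vehicle, the group where it is highest, so its levels are a description with no test. Its HFHS vehicle arrays ran from -5.25 to -3.30 and its ST vehicle arrays from -5.46 to -4.78, and the probe was well above background on 2 of 3 ST vehicle arrays, 5 of 5 HFHS vehicle arrays and 4 of 5 pollutant arrays.

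The fibril-associated, beaded, anchoring and transmembrane collagens gave no call either. Col14a1, which sits on the surface of collagen I fibrils, was at 1.92, 1.94 and 2.23 in ST vehicle, 1.93 to 2.26 in HFHS vehicle and 1.63 to 2.08 in ST pollutants, and the groups overlap. Col6a1 of the pericellular collagen VI network was at -0.12, 0.03 and 0.23 in ST vehicle, with differences of -0.19 ± 0.18 and -0.03 ± 0.18 for HFHS vehicle and ST pollutants. Col7a1, the anchoring fibril collagen of epithelia, gave 0.38 ± 0.33 in HFHS vehicle and 0.39 ± 0.33 in ST pollutants, from overlapping arrays. The first rests on HFHS vehicle replicate 5, at -1.64 against -3.37 to -2.57 on the other arrays of that group, and was 0.10 without it.

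Several members followed the slide more than the group. Over the 66 genes the slide took a median of 39.4% of the variance and the group 13.9%, against 40.2% and 18.4% over all genes; 5 slides take a larger share than 3 groups in the absence of any difference. The slide took 95.8% for Col6a2, 95.6% for Adamts18, 95.2% for Col25a1 and 95.2% for Col6a4, genes picked here for that share. Col6a2, a second collagen VI chain, was at -2.58, -2.69 and -2.77 on the 3 arrays of slide 1, and at -1.28 and -1.39 on the 2 arrays of slide 4, whatever the group. A comparison for these genes rests on arrays from several slides, and the HFHS vehicle and pollutant groups are balanced over slides while ST vehicle is missing from slides 3 and 4.

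Among the glycoproteins, proteoglycans and activation genes all 6 were tested. Fn1, the fibronectin that hepatocytes secrete, lay between 6.84 and 7.20 on the 13 arrays, with a difference of -0.09 ± 0.08 for HFHS vehicle and -0.03 ± 0.08 for ST pollutants against ST vehicle. Dcn, the small proteoglycan decorin that binds collagen and TGF-beta, was at 5.86, 5.97 and 5.93 in ST vehicle, 5.43 to 5.89 in HFHS vehicle and 5.69 to 6.11 in ST pollutants. The HFHS vehicle difference was -0.23 ± 0.12 (limma adjusted p = 0.484).

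Lum, lumican, a proteoglycan that spaces collagen fibrils, was lower in HFHS vehicle in point estimate. Its levels were 0.87, 0.82, 1.08, 1.33 and 1.12 in HFHS vehicle, 1.43, 1.27 and 1.62 in ST vehicle, and 1.33, 1.69, 1.16, 1.22 and 1.55 in ST pollutants. A single HFHS vehicle array, replicate 4, overlapped with ST vehicle. The difference from ST vehicle was -0.40 ± 0.15 (limma adjusted p = 0.287), at -0.56, -0.44 and -0.51 within slides 1, 2 and 5, and -0.60 (adjusted p = 0.285) without HFHS vehicle replicates 3, 4 and 5. Beside it, the mean of 9 portal fibroblast markers was -1.15 to -0.78 in HFHS vehicle and -1.03 to -0.77 in ST vehicle, with Gli1 not measured; its part in the Lum difference was not tested.

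Ctgf (current symbol Ccn2), a matricellular protein induced by TGF-beta and YAP signalling, varied most among the pollutant arrays. Its levels were -1.43, 0.11, -0.82, -0.31 and 0.46 in ST pollutants, against -1.36, -1.43 and -1.09 in ST vehicle and -1.53, -1.59, -1.42, -1.53 and -0.85 in HFHS vehicle. ST pollutants replicate 1 sat among the vehicle arrays, while replicates 2, 3, 4 and 5 lay above all of them, replicate 3 by the least. The difference was 0.89 ± 0.35 from ST vehicle (limma adjusted p = 0.307), and HFHS vehicle differed from ST pollutants by -0.99 ± 0.30 (adjusted p = 0.0973). The latter passed the test without ST pollutants replicate 1 (-1.25, adjusted p = 0.0231) and with slide as a random block (adjusted p = 0.0337), and did not with slide as a fixed block (adjusted p = 0.0607); over all alternatives its adjusted p ran from 0.0231 to 0.236. Within the 5 slides it was -0.10, -1.70, -0.59, -1.22 and -1.32, on slides 1 to 5 in order. Tgfb1, the cytokine itself, lay at -2.51, -2.23 and -1.85 in ST vehicle, -2.34 to -2.06 in HFHS vehicle and -2.56 to -2.18 in ST pollutants, with differences of -0.02 ± 0.14 and -0.18 ± 0.14.

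Acta2, smooth muscle actin of activated stellate cells and of vessel walls, spread widely within each group, and the groups overlapped. It was at -0.71, -0.85, -0.86, -0.09 and -0.55 in HFHS vehicle, 0.51, -0.12 and -0.82 in ST vehicle, and -0.30, 0.26, -0.67, -0.09 and -1.11 in ST pollutants. The HFHS vehicle difference from ST vehicle was -0.47 ± 0.33 (limma adjusted p = 0.698). As deviations from group means over the 13 arrays, Acta2 followed the mean of 6 smooth muscle markers that do not include it, with r of 0.911 and rho of 0.950 (permutation p = 1e-05 each, the smallest that 100000 permutations can give, adjusted 6e-05). Without the 2 farthest arrays r was 0.906, and as deviations from slide means 0.963. This relation was added after the values were seen. The smooth muscle mean was -1.72 to -1.05 in ST vehicle, -1.96 to -1.24 in HFHS vehicle and -1.91 to -1.19 in ST pollutants, with Lmod1 not measured.

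The lysyl oxidase-like enzymes, which crosslink collagen and elastin, had negative estimates for all 4 genes in all 3 comparisons on the probes used, none past the test. Over all genes, 54.5% of estimates were negative in HFHS vehicle against ST vehicle, 51.8% in ST pollutants against ST vehicle and 51.1% in HFHS vehicle against ST pollutants. The signs of these 4 genes depended on the processing and, for Loxl2, on the probe. Under normexp the estimates of Loxl1, Loxl3 and Loxl4 were positive in both HFHS vehicle comparisons, and that of Loxl2 was positive for HFHS vehicle against ST pollutants, as it also was under quantile and median scaling. For ST pollutants against ST vehicle, the estimate of Loxl3 was positive in the authors' deposited table. Loxl4 was at -3.84, -4.20 and -3.36 in ST vehicle, -4.96, -4.77, -4.08, -4.44 and -5.33 in HFHS vehicle, and -3.95, -4.25, -4.24, -4.28 and -4.52 in ST pollutants. A single HFHS vehicle array, replicate 3, overlapped with ST vehicle. ST pollutants differed from ST vehicle by -0.45 ± 0.26 (limma adjusted p = 0.573). The probe was well above background on all 3 ST vehicle, 3 of 5 HFHS vehicle and 5 of 5 pollutant arrays. It passed the filter only through ST vehicle and ST pollutants, the groups where it is higher. The difference of HFHS vehicle from ST vehicle, -0.91 and under normexp 0.17, is therefore a description with no test.

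A second Loxl4 probe, at chr19:42668733-42668792 on mm9, set both exposures below ST vehicle. It was at -3.75, -4.11 and -2.87 in ST vehicle, -5.35 to -4.60 in HFHS vehicle and -5.23 to -4.50 in ST pollutants, with no overlap between ST vehicle and either. That probe was well above background on 3 of 3 ST vehicle, 2 of 5 HFHS vehicle and 1 of 5 pollutant arrays. It passed the filter only through ST vehicle, the group where it is high, and most exposed arrays give only a bound, so these levels are a description with no test. The first probe overlapped between ST vehicle and ST pollutants. Loxl1 (-0.34 ± 0.18 and -0.27 ± 0.18) and Loxl2 (-0.19 ± 0.15 and -0.17 ± 0.15) had like-sized estimates in HFHS vehicle and ST pollutants against ST vehicle. A second Loxl2 probe gave -0.14 ± 0.12 and -0.40 ± 0.12 there, and 0.26 ± 0.11 for HFHS vehicle against ST pollutants (limma adjusted p = 0.206), opposite in sign to the probe used. Of the 3 kept Loxl2 probes, the remaining probe was also well above background on every array. It was at -0.91 to -0.83 in ST vehicle, -1.33 to -0.73 in HFHS vehicle and -1.23 to -0.97 in ST pollutants. All its pollutant arrays lay below all its ST vehicle arrays. Its mean was higher in HFHS vehicle than in ST pollutants, again opposite in sign to the probe used (means -0.84 and -0.83). Loxl3 was missing on 1 pollutant array, where the spot was flagged.

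Of the 23 metalloproteinases, 10 were tested and none passed. Mmp19, a broad-spectrum member that cuts basement membrane proteins, was at -0.85, -0.94, -1.17, -1.08 and -1.20 in HFHS vehicle, -1.31, -1.14 and -1.25 in ST vehicle, and -1.52, -1.54, -1.36, -1.16 and -1.25 in ST pollutants. The HFHS vehicle arrays overlapped with the pollutant arrays, and were higher on each of the 5 slides (0.06 to 0.66). That difference was 0.32 ± 0.10 (limma adjusted p = 0.0927). Mmp2 (gelatinase A of stellate cells) and Mmp14, which activates it, differed from ST vehicle by -0.13 ± 0.16 and -0.17 ± 0.17 in HFHS vehicle and by -0.27 ± 0.16 and -0.16 ± 0.17 in ST pollutants. Mmp15, a second membrane-type enzyme, gave 0.24 ± 0.14 and 0.16 ± 0.14. Mmp7 (matrilysin, of biliary epithelium) spread from -4.24 to -2.13 in HFHS vehicle, and its estimates of -0.29 ± 0.47 and 0.31 ± 0.47 carried wide errors.

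The tissue inhibitors restrain these enzymes, and Timp1 is the one most often raised in fibrotic liver. Timp1 was at -4.17, -4.21 and -3.85 in ST vehicle, -4.64 to -3.71 in HFHS vehicle and -4.26 to -3.30 in ST pollutants, with differences of 0.06 ± 0.25 and 0.29 ± 0.25. Timp2 was at 1.93, 2.14 and 2.15 in ST vehicle, 1.79 to 2.30 in HFHS vehicle and 1.52 to 2.14 in ST pollutants. It was higher in HFHS vehicle than in ST pollutants on each of the 5 slides (0.09 to 0.26). A second Timp2 probe, picked here for its values, was at -0.95 to -0.70, -0.80 to -0.66 and -1.12 to -0.85 in the same order of groups. On it HFHS vehicle and ST pollutants did not overlap, as for 6.93% of all genes on the probes used. Timp3, the matrix-bound inhibitor, was at 0.71, 0.95 and 0.55 in ST vehicle, 0.64 to 0.96 in HFHS vehicle, and 0.74, 2.90, 1.14, 1.01 and 1.12 in ST pollutants. The difference from ST vehicle was 0.65 ± 0.38 (limma adjusted p = 0.574) and 0.27 without replicate 2 (adjusted p = 0.427). Replicates 3, 4 and 5 also lay above every array of the other groups, and Timp3 was higher in ST pollutants on all 3 slides shared with ST vehicle and on all 5 shared with HFHS vehicle. On the array of replicate 2 the mean of 6 adipocyte markers was 0.11, against -2.30 to -0.59 on the other 12 arrays, with Adipoq not measured. The mean of 4 of 7 mesothelial markers was -2.18, against -3.60 to -2.63 elsewhere. Their part in the Timp3 value was not tested.

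Among the ADAMTS proteases, 11 of 19 were tested, and Adamts1 came nearest to a call. Adamts1 cuts the proteoglycans versican and aggrecan and is an early response gene in many cells. It was at -0.62, -0.57, -0.37, -0.59 and -0.61 in HFHS vehicle, -0.94, -1.25 and -1.07 in ST vehicle, and -0.89, -1.28, -0.96, -0.89 and -0.72 in ST pollutants. All 5 HFHS vehicle arrays lay above all 8 arrays of the other groups, which overlapped with each other. The difference was 0.54 ± 0.12 from ST vehicle (limma adjusted p = 0.0710) and 0.40 ± 0.10 from ST pollutants (adjusted p = 0.0580), while ST pollutants differed from ST vehicle by 0.14 ± 0.12 (adjusted p = 0.768).

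Within slides, Adamts1 was higher in HFHS vehicle in every pair, by 0.32, 0.68 and 0.46 against ST vehicle on slides 1, 2 and 5, and by 0.28, 0.71, 0.60, 0.30 and 0.11 against ST pollutants on slides 1 to 5. The difference from ST vehicle passed the test with slide as a random block (adjusted p = 0.0337) and without ST pollutants replicate 2 (0.0334), and had an adjusted p of 0.137 with slide as a fixed block. That from ST pollutants passed with slide as a random block (0.0205), under quantile normalization (0.0464) and without ST pollutants replicate 5 (0.0460), and had 0.0580 with slide as a fixed block. Over all alternatives the adjusted p ran from 0.0334 to 0.343 and from 0.0205 to 0.293, and the log2 fold change from 0.46 to 0.63 and from 0.31 to 0.45. The highest adjusted p-values came without HFHS vehicle replicates 3, 4 and 5, which leaves 2 arrays in that group, at 0.49 from ST vehicle and 0.35 from ST pollutants. Without slide 1 the differences were 0.63 (adjusted p = 0.221) and 0.43 (0.163). Non-overlapping groups were found for 2 of 66 genes in HFHS vehicle against ST vehicle (9.15% of all genes) and for 1 of 66 in HFHS vehicle against ST pollutants (6.93%), and Adamts1 was in both.

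The 250 bases before the annotated start of Adamts1, the gene nearest to a call, are shown on the gene's minus strand at chr16:85803114-85803363 of GRCm38.p6 (RefSeq), with capitals as above.
Adamts1: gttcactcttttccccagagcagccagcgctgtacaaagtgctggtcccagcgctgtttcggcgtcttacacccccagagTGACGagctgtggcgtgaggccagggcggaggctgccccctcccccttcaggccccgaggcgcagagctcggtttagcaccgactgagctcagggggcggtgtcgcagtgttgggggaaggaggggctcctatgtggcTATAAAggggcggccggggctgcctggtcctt

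The window holds 1 TGACG, found in 17.8% of all windows, and 1 TATAAA.

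The other gene whose HFHS vehicle and ST vehicle arrays did not overlap was Adamts14, a procollagen N-propeptidase, at -2.27 to -2.07 in HFHS vehicle and -1.86 to -1.76 in ST vehicle. Its difference was -0.33 ± 0.15 (limma adjusted p = 0.425), and it was chosen after its values were seen. A dimmer second probe of Adamts14, well above background on 2 of 3 ST vehicle and 4 of 5 HFHS vehicle arrays, gave 0.28 ± 0.62 in that comparison. Adamts4, an aggrecanase, had the most negative estimate in ST pollutants against ST vehicle, -0.57 ± 0.24 (limma adjusted p = 0.357), from levels of -4.17 to -3.27 against -3.13, -3.71 and -2.86. Adamts13, which stellate cells secrete to cut von Willebrand factor, and Adamts2, the main procollagen I N-propeptidase, stayed within 0.20 of ST vehicle in estimate on the probes used. A dimmer second Adamts2 probe, well above background on every array, gave -0.01 ± 0.28 in HFHS vehicle and -0.34 ± 0.28 in ST pollutants (limma adjusted p = 0.748 for the latter).

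**Figure D5:**
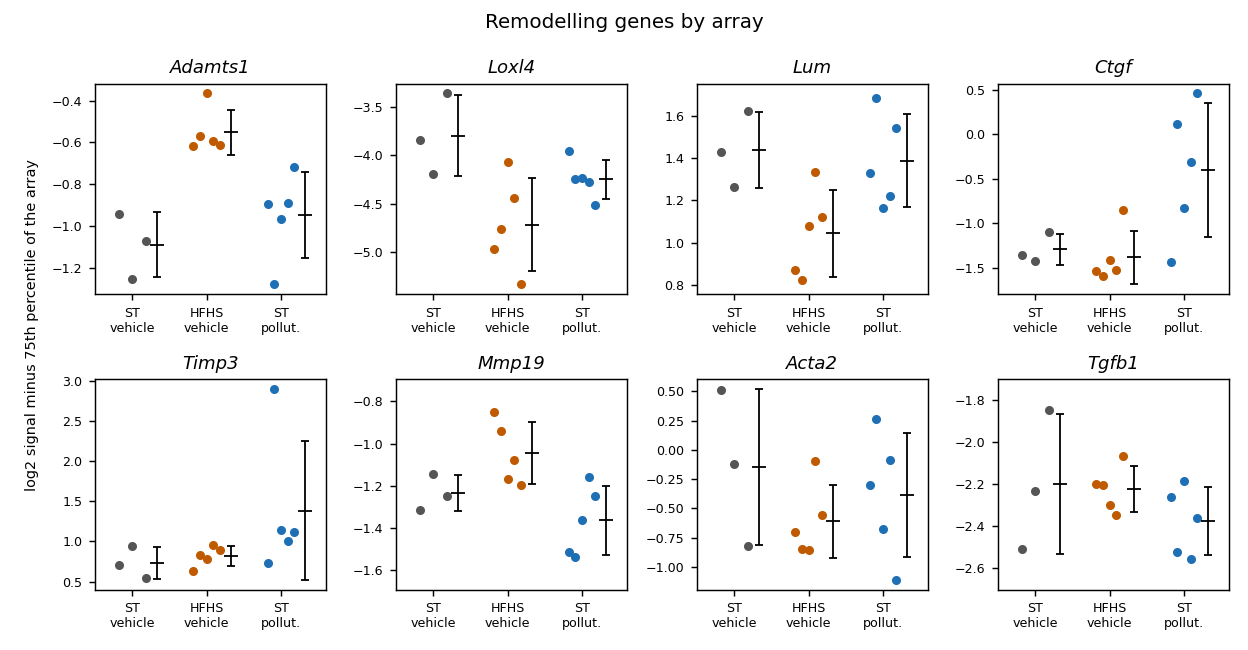
Levels of 8 remodelling and activation genes on each array (points) by group, with the group mean and SD (black); the vertical axis is the log2 signal minus the array's 75th percentile and its range differs between panels. The 5 HFHS vehicle points of Adamts1 lie above all others, and 1 pollutant point of Timp3 lies at 2.90.

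The genes around this module were counted from 5 lists with 124 genes, 107 of them tested. Of the 107, 1 passed in HFHS vehicle against ST vehicle, 1 in ST pollutants against ST vehicle and 2 in HFHS vehicle against ST pollutants, where 0.687%, 0.984% and 3.87% of all genes did. The lists were chosen with earlier results of these data known, so these counts are a description. In collagen synthesis, folding and crosslinking (18 tested), other matrix proteins (37), and other protease inhibitors and activators (12), none passed in any comparison. In TGF-beta and PDGF signalling (24 tested) Smad7, the inhibitory SMAD that TGF-beta itself induces, was lower in both exposures. It was at -0.53, -0.69 and -0.51 in ST vehicle, -2.34, -1.93, -1.81, -1.94 and -1.63 in HFHS vehicle, and -2.19, -1.74, -1.69, -1.85 and -1.10 in ST pollutants, with no overlap between ST vehicle and the rest. It fell by 1.35 ± 0.21 on the log2 scale in HFHS vehicle (2.55-fold lower, limma adjusted p = 0.0147) and by 1.13 ± 0.21 in ST pollutants (2.20-fold lower, adjusted p = 0.0294), against the same 3 arrays.

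Smad7 was lower on each of the 3 slides that held both groups, and with slide as a fixed block its adjusted p was 0.0197 and 0.0379. The call in HFHS vehicle held in 21 of 26 alternatives and that in ST pollutants in 14 of 26. Leaving out ST vehicle replicate 1 (adjusted p = 0.0757) or replicate 3 (0.0717) ended the first. The second ended without ST vehicle replicate 1 (0.104), 2 (0.0750) or 3 (0.133), or ST pollutants replicate 2 (0.0509), 3 (0.0588) or 4 (0.0709), with no direction turned. Without HFHS vehicle replicates 3, 4 and 5 the adjusted p was 0.116 and 0.0669, without slide 1 it was 0.0780 and 0.118, and under normexp 0.123 and 0.167. The second call was also lost under median scaling (0.0670), with no filter on dim probes (0.0632) and with only those groups in the fit (0.104).

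Pdgfra, a PDGF receptor of fibroblasts and stellate cells, was at -2.54 to -2.08 in HFHS vehicle and -2.08 to -1.65 in ST pollutants, which overlapped at 1 pair of arrays, and was 1.47-fold lower in HFHS vehicle (-0.56 ± 0.11, limma adjusted p = 0.0172). It kept the call with slide as a fixed block (0.0178) and in 22 of 27 alternatives in all. It lost it without HFHS vehicle replicate 2 (0.0524), without slide 1 (0.0706), under median scaling (0.0897), in the authors' deposited table (-0.32, adjusted p = 0.0941), and under normexp (-0.16, adjusted p = 0.674). Among the matrix receptors (16 tested) Itgb1, the beta1 chain of collagen-binding integrins, was 1.27-fold lower in HFHS vehicle than in ST pollutants (-0.34 ± 0.08, limma adjusted p = 0.0357). Its levels were 0.46 to 0.77 and 0.89 to 1.13, without overlap, but the call held in 10 of 27 alternatives, and with slide as a fixed block the adjusted p was 0.0547. The call was lost on leaving out HFHS vehicle replicate 1 (0.0830), 2 (0.0688), 3 (0.0550) or 5 (0.0692), ST vehicle replicate 1 (0.0532), or ST pollutants replicate 1 (0.0750), 2 (0.0688), 3 (0.0791) or 5 (0.0513), and without HFHS vehicle replicates 3, 4 and 5 (0.121) or slide 1 (0.188). It was also lost with the mean of all its kept probes (-0.18, adjusted p = 0.312), under median scaling (0.268), with no filter on dim probes (0.0873), with the replicate block (0.0771) and with only those groups in the fit (0.0579).

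Of the 12 stellate cell markers 1 passed the test, Ngfr, the p75 neurotrophin receptor, in ST pollutants against ST vehicle (0.984% of all genes) and in HFHS vehicle against ST pollutants (3.87%). It was at -1.12 to -0.86 in ST pollutants, below all ST vehicle arrays (-0.55, -0.34 and -0.01) and all HFHS vehicle arrays (-0.53 to -0.27). It was 1.64-fold lower in ST pollutants than in ST vehicle (-0.71 ± 0.12, limma adjusted p = 0.0199) and 1.57-fold higher in HFHS vehicle than in ST pollutants (0.65 ± 0.10, adjusted p = 0.00620). The first call held in 18 of 27 alternatives and the second in 25. The first was lost with slide as a fixed block (0.0678), with the replicate block (0.0757), with only those groups in the fit (0.104), under normexp (0.0944) and median scaling (0.0574), and without ST vehicle replicate 2 (0.0628) or 3 (0.0813). Without HFHS vehicle replicates 3, 4 and 5 the adjusted p was 0.0595 and 0.0724, and without slide 1 it was 0.0670 and 0.0703. The mean of the stellate list, which includes Ngfr, was -0.24 to -0.17 in ST vehicle, -0.44 to -0.19 in HFHS vehicle and -0.37 to -0.31 in ST pollutants. Its part in the differences between groups was not tested. None of 9 portal fibroblast, 6 smooth muscle, 9 endothelial and 12 Kupffer cell and macrophage markers passed in any comparison. The mean of the 6 cholangiocyte markers used was -2.86 to -2.57 in HFHS vehicle and -2.34 to -2.18 in ST vehicle; its part in the HFHS vehicle differences was not tested.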

How the data were processed

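Total RNA of mouse liver from 13 samples was labelled with Cy3 (0.1 ug per labelling) and hybridized to 1 array each. Linear spot intensity from Agilent Feature Extraction 11.5.1.1 was deposited for each array, with probe positions on mm9, per the file headers. A second deposited table holds log2 values of 26082 probes, for which the submitters' processing notes name limma; it served only as an alternative. The processed signal was log2-transformed, flagged spots were set to missing, and each array's 75th percentile (782 to 1354 units) was subtracted. Probes well above background throughout 1 group or more were kept (25028 of 39429), and the brightest kept probe stood for its gene. Between 62.8% and 69.5% of probes were well above background, and at most 1 was saturated on any array.

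limma 3.58.1 in R 4.3.3 fitted the 3 groups in 1 model with moderated variances, tested two-sided, adjusted by Benjamini-Hochberg over 19513 genes. Intervals are at 95%. Precision is limited by the number of arrays, with 3 in ST vehicle. The genes, their roles and the gene and marker lists were chosen with earlier results of these data known. Named were the 5 tested genes of largest change in each direction per comparison and 29 fixed genes of this module, 26 of them tested (33 in all). Alternatives covered background correction, scaling, the authors' values, filters, probes per gene, slide and replicate number as blocks, variance settings and left-out arrays. The pipeline was tested on simulated data. Correlations of array values used 100000 two-sided permutations in Python 3.11.15. The slide of each array comes from the file records. Sequences are from the scanner files and RefSeq; no promoter was given for Ctgf, Col1a1 or Lum.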

Additional observations from a re-analysis of the deposited data

Results flagged for a closer look

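In 4 of the 66 sets of 5 arrays checked among the named genes, 1 array stood apart from the rest by Dixon's criterion, which chance alone meets in about 1 of 20. Adamts1 was at -0.37 in HFHS vehicle replicate 3, with the nearest array at -0.57. Ctgf was at -0.85 in HFHS vehicle replicate 5, with the nearest at -1.42. Mmp7 was at -2.13 in HFHS vehicle replicate 1, with the nearest at -3.72, and without that array its log2 fold change against ST pollutants went from -0.60 to -0.96 (limma adjusted p = 0.162). Timp3 was at 2.90 in ST pollutants replicate 2, with the nearest at 1.14.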

How the results depend on the processing

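Over 28 alternatives, 2628 of 2763 values of the named genes kept their direction and their side of the threshold, 128 changed sign without a call in either setting, 7 passed the test only under the alternative (Adamts1 and Ctgf), and 0 called values reversed. The number of genes of the module that passed was 0 in the main setting in each comparison. It became 1 under quantile normalization (HFHS vehicle against ST pollutants, Adamts1), 1 with every probe tested (ST pollutants against ST vehicle, a second Loxl4 probe that passed the filter only through ST vehicle, where it is high, and was well above background on 1 of 5 pollutant arrays, so that this is no test of a difference), and, with slide as a random block, 1 in HFHS vehicle against ST vehicle and 2 in HFHS vehicle against ST pollutants. Leaving out 1 array at a time gave 0 to 1 in HFHS vehicle against ST vehicle and in HFHS vehicle against ST pollutants. Normexp moved the median log2 fold change to 0.181 in HFHS vehicle against ST vehicle and to 0.250 against ST pollutants, while the median of all genes moved by 0.11 and 0.10. Leaving out ST vehicle replicate 2 took the median to -0.122 in HFHS vehicle and -0.146 in ST pollutants, the lowest of the medians without 1 array, which ran up to 0.014 and -0.026. The causes were not tested. For HFHS vehicle and ST pollutants the replicate number is also the slide, on all 5 slides, and ST vehicle replicates 1 and 2 lie on slides 1 and 2 but replicate 3 on slide 5. After group means were removed, same-numbered arrays on 1 slide correlated at -0.02 to 0.56, and those on different slides at -0.17 and -0.15. The labels name no animal shared by a number, so the fit without the block was kept; with the replicate number as a block, 0 genes of the module passed in each comparison and the medians were -0.093, -0.126 and 0.022. Genes called over all genes ran from 1 to 337, 3 to 447 and 1 to 1652 in the 3 comparisons in the order above. With 3 ST vehicle arrays, dim probes such as Loxl4 and Col15a1 have the least certain values.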
